A study of Mus musculus with 35 samples.

Results

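The genes of CD45+ve microglia that stood highest or lowest at postnatal day 15 (P15), against both an earlier and a later age, were described here. The counts of P15 mice were compared with the average of the P6 mean and the 8-week mean on the log2 scale. A gene that rises or falls by equal log2 steps between these ages gives a small contrast. A gene with unequal steps in the same direction can still give a large contrast. A gene was called a peak (or a trough) when this contrast exceeded 2-fold in edgeR's quasi-likelihood test against a threshold, at a false discovery rate (FDR, Benjamini-Hochberg) below 5%, and when P15 also differed in the same direction from P6 and from 8 weeks, each at the same FDR. By this rule, 58 genes were peaks and 10 were troughs among 17612 genes tested, which is 0.329% and 0.0568% of them. A wider rule without the fold threshold held 617 peaks and 590 troughs, which is 3.50% and 3.35%.

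The study isolated CD45+ve cells from the whole brain of C57BL/6 wild-type mice by immunopanning, in which a dish coated with an antibody holds the cells that carry CD45, and sequenced the mRNA of 1 library per mouse. The 34 of 35 libraries used here were from 10 mice at P6 (4 females, 6 males), 12 at P15 (6 females, 6 males) and 12 at 8 weeks (6 females, 6 males). Per the labels and the study's methods no mouse was treated or carried an engineered allele. P6 female 6 was left out, since the study removed 1 mouse as an outlier and this mouse is the one absent from its plotted mice, and results that change with it are given below. CD45 is carried by all nucleated blood-derived cells, so microglia are selected by this antibody together with any border macrophages or blood cells of the dissociated brain.

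Microglia are the resident macrophages of the brain. They arise from the yolk sac, enter the brain before birth and divide after it, in a wave that the study places highest in the second postnatal week. They then settle into a surveying state held by colony-stimulating factor 1 and transforming growth factor beta. The age of P15 lies between these phases, at a time when mouse pups open their eyes, synapses are formed and removed in large numbers, myelin is laid down by oligodendrocytes, and the cerebellum completes its layer of granule neurons. Microglia take up synaptic material, dying cells and surplus oligodendrocyte precursors in these days. They sense danger through toll-like receptors, whose signal reaches the NF-kappa-B transcription factors and switches on interleukin-1, tumour necrosis factor and chemokines.

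Most genes did not reach an extreme at P15. Of the genes tested, 1979 rose in both steps (from P6 to P15 and from P15 to 8 weeks) and 2348 fell in both, while 617 rose and then fell and 590 fell and then rose. The median contrast of all genes was -0.002 on the log2 scale, a value that the scaling of the libraries holds near 0. A peak at P15 was therefore less frequent than a steady change. The genes nearest to the call by this FDR were Fzd10 (FDR 0.047) and, with equal values, Dupd1 and Hapln1 (0.043) just inside it among peaks. Ky (0.051) and Cldn11 (0.055) lay just outside it. Among troughs they were Cxcl10 (0.043) and Neurog1 (0.026) inside, and Fosl1 (0.065) and Lilr4b (0.100) outside. The members are grouped below by what they are known to do, a grouping made after they were known.

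**Figure D1:**
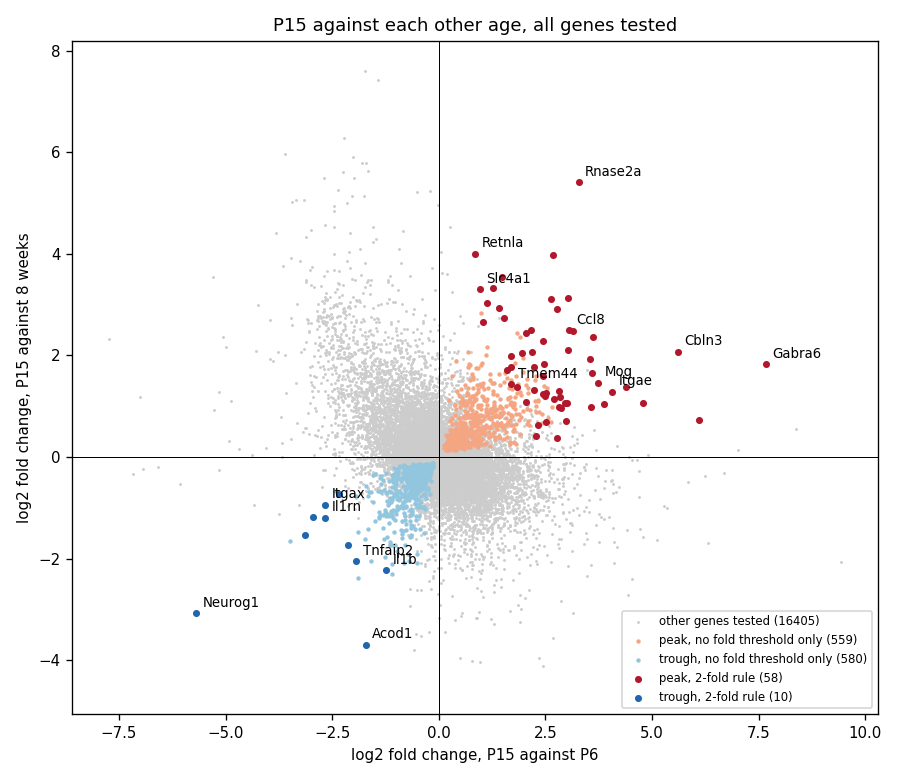
Each point is a gene, with its log2 fold change of P15 against P6 on the horizontal axis and of P15 against 8 weeks on the vertical axis. The 58 peaks of the 2-fold rule lie in the upper right and the 10 troughs in the lower left, while genes without a call lie in the other corners or near the centre.

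Libraries differed in the level of markers of other cells, and this moved with age. In bulk libraries more cells of a type and more RNA per cell cannot be told apart, and this holds for each group described below. Counts per mouse on genes ranged from 23316107 to 38965078. The summed level of 10 microglial markers was 11446 to 20893 (median 13838) CPM at P6, 22828 to 49184 (median 34689) CPM at P15 and 31908 to 47413 (median 39219.6) CPM at 8 weeks. The 12 markers of myelinating oligodendrocytes summed to 242 to 598 (median 348), 1052 to 4406 (median 1683) and 512 to 2275 (median 709) CPM at the same ages. The 6 erythroid markers summed to 1191 to 4634 (median 2127), 3351 to 8435 (median 5254) and 809 to 4359 (median 2051) CPM. Markers of cerebellar granule neurons summed to 75.5 to 991 (median 627), 47.8 to 495 (median 209) and 23.6 to 135 (median 49.6) CPM, so the median of that sum was lower at each later age. The 9 astrocyte markers summed to 516 to 1329 (median 1007), 943 to 7735 (median 3513) and 2007 to 5886 (median 3066) CPM, and none of them passed either rule. None of the markers tested, of any cell type, was at 0 in every P15 mouse. P15 male 1 stood apart from the other P15 mice, with the highest summed myelin markers (4406 CPM) and the lowest summed border macrophage markers (289 CPM, against 646 to 1031 CPM in the other 11). Without this mouse 44 genes were peaks and 9 were troughs. With P6 female 6 included 42 genes were peaks, all of them among the 58, and the same 10 genes were troughs.

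**Figure D2:**
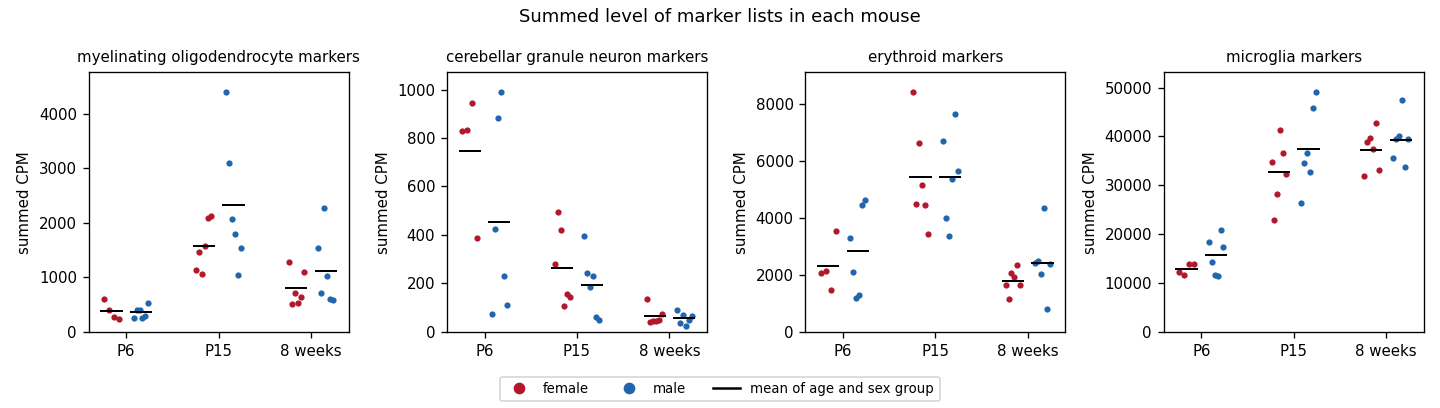
Summed CPM of 4 marker lists, with 1 point for each mouse by age and sex and a line at the mean of each age and sex group. The medians of the myelin and erythroid markers were highest at P15, that of the granule neuron markers was lower at each later age, and all P15 mice lay above all P6 mice in the microglial markers.

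Few genes separated the P15 mice from every other mouse. In 8 genes each P15 mouse lay above all 22 mice of the other ages, and in 8 genes each lay below them, which is 0.0454% of the genes tested in either direction. Among the higher genes were Tmem44, Hs3st2, Gm13209, Lrrc4, Pacsin1, Mxd4 and Dyrk1b, of which the first 3 were also peaks by the 2-fold rule. The lower genes were Tnfaip2, Ly9, Tmem154, Fblim1, Fxyd5, Cited2, Rpp40 and D16Ertd472e, of which only Tnfaip2 was a trough by that rule. All 16 passed the wider rule, and each also did so in females alone and in males alone. These genes were chosen for non-overlap in the same mice, which largely fixed that outcome.

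Tmem44, which encodes a multi-pass transmembrane protein (chr16:30511855-30550842, minus strand, GRCm38), was 132 to 207 CPM (median 185) at P15, 46.6 to 70.1 CPM (median 55.6) at P6 and 50.5 to 76.1 CPM (median 67.9) at 8 weeks. Its lowest P15 mouse was P15 male 1, and that mouse still lay above every mouse of the other ages. The contrast was 1.56 ± 0.06 log2 (SE), with FDR 4.3e-08 against the 2-fold threshold, and P15 was 3.24-fold above P6 and 2.69-fold above 8 weeks. Hs3st2, an enzyme that adds sulphate to heparan sulphate chains (chr7:121391859-121501770, plus strand), was 5.45 to 9.92 CPM (median 6.54) at P15, 0.473 to 3.56 CPM (median 1.31) at P6 and 0.636 to 2.9 CPM (median 1.38) at 8 weeks. The ages on either side of P15 overlapped with each other for both genes. The call of Hs3st2 was lost with the oligodendrocyte or the erythroid markers held constant in the fit, at contrasts of 1.69 and 1.70 log2 against 2.12 log2. Where a P15 level is set against a pair of ranges below, the first is of P6 and the second of 8 weeks. Among the separated genes that did not pass the 2-fold rule, Mxd4, a transcriptional repressor that opposes Myc, differed by less, at 152 to 247 CPM (median 181) against 113 to 145 CPM (median 119) and 106 to 147 CPM (median 126), but without overlap.

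**Figure D3:**
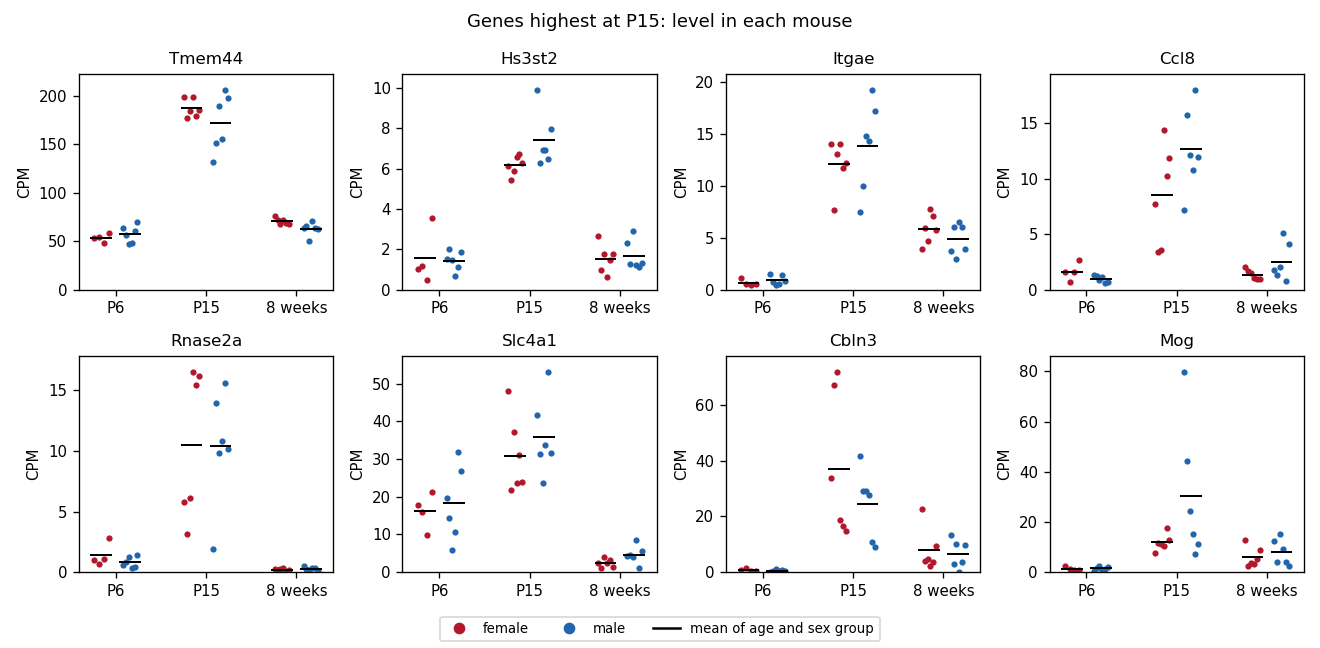
Level in CPM (vertical axis, from 0) of 8 peak genes in each mouse by age, with females and males apart and a line at the mean of each age and sex group. P15 mice lie above all others in Tmem44 and Hs3st2, while Mog rests more on a few high P15 mice, up to 79.7 CPM in P15 male 1.

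Surface proteins and receptors formed 1 group of peaks. Itgae, the integrin alpha-E chain (CD103) that binds E-cadherin (chr11:73090583-73147446, plus strand), was 7.43 to 19.2 CPM (median 13.5) at P15, 0.389 to 1.49 CPM (median 0.645) at P6 and 2.98 to 7.72 CPM (median 5.81) at 8 weeks, with a contrast of 2.67 ± 0.17 log2 (FDR 3.7e-09). The P6 mice lay far below the other ages, and P15 and 8 weeks overlapped between 7.43 and 7.72 CPM. Gpr165, an orphan G protein-coupled receptor, was 78.2 to 248 CPM (median 192) at P15 against 32.8 to 71.9 CPM (median 44.2) and 54.5 to 127 CPM (median 88). Tmc7, a transmembrane channel-like protein, was 57.1 to 101.1 CPM (median 81.9) at P15 against 13.1 to 21.3 CPM (median 15.5) and 49.7 to 68.9 CPM (median 61), and so differed from P6 by 4.84-fold but from 8 weeks by 1.33-fold only. Adra2a, the alpha-2A adrenergic receptor through which noradrenaline acts, was 12 to 85.5 CPM (median 35.4) at P15, 2.79 to 7.48 CPM (median 5.32) at P6 and 10.2 to 34.2 CPM (median 18.8) at 8 weeks. Igsf1 was 13.5 to 165 CPM (median 63.5) at P15 and at most 49.2 CPM at the other ages. Both were highest in P15 male 1 (85.5 CPM for Adra2a and 165 CPM for Igsf1), the mouse with the highest summed myelin markers. With the oligodendrocyte markers held constant the contrast of Adra2a fell from 1.90 to 0.83 log2 and that of Igsf1 from 2.0 to 0.68 log2, and both calls were lost. Tmem44, Itgae and Ccl8 (below) were the 3 peaks that were called in every alternative fit that kept this rule, including those that adjusted for neural, oligodendrocyte or erythroid markers. A fit among them tested only genes with at least 10 counts in every mouse, so genes near the floor at another age could not be called in it. Rnase2a (below), at 0.0364 CPM in its lowest 8-week mouse, was such a gene. It was called with each of the 3 sets of markers held constant and in all 16 fits that left out 1 mouse.

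A further 4 surface or secreted genes of homeostatic microglia were peaks by the wider rule, of 21 tested in that list, against 3.50% of all genes, and none was a trough. Sparc, a matrix-binding glycoprotein, was 4274 to 9033 CPM (median 6656) at P15, 1544 to 2524 CPM (median 1799.7) at P6 and 3582 to 5758 CPM (median 4031) at 8 weeks. Crybb1 was 320.4 to 608 CPM (median 493) against 229 to 431 CPM (median 312) and 156 to 358 CPM (median 204). Fcrls and Adgrg1, a receptor-like protein and an adhesion receptor, exceeded 8 weeks by 0.34 and 0.25 log2 and P6 by 0.83 and 1.81 log2. The median of the list was 0.66 log2 on the contrast and -0.25 log2 for P15 against 8 weeks. Adjusting for the neural markers made 11 of the 21 peaks, and adjusting for the erythroid markers none.

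Genes of eosinophil granules and of alternatively activated macrophages included the peaks with the largest margins over both ages. Rnase2a, an eosinophil-associated ribonuclease (chr14:51255262-51256112, minus strand), was 1.92 to 16.5 CPM (median 10.5) at P15, 0.364 to 2.78 CPM (median 0.923) at P6 and 0.0364 to 0.473 CPM (median 0.227) at 8 weeks. The contrast was 4.34 ± 0.29 log2 (FDR 3.2e-10), with P15 9.68-fold above P6 and 42.6-fold above 8 weeks, and 1 P15 mouse, P15 male 1, fell within the P6 range. Ear1, of the same ribonuclease family, was 0.0660 to 0.948 CPM (median 0.721) at P15 and at most 0.312 CPM elsewhere. Near-identical members of that family can share reads, so the split between them is uncertain. Prg2, the major basic protein of the eosinophil granule, was 0.411 to 10.5 CPM (median 2.55) at P15, 0.101 to 2.65 CPM (median 0.256) at P6 and 0 to 1.49 CPM (median 0.173) at 8 weeks, with overlap. Its call was lost in DESeq2, in limma-voom, with each of the 3 sets of markers held constant and without P15 male 1, its highest mouse (10.46 CPM). The contrast of Prg2 was 2.54 to 3.13 log2 in these fits, against 2.87 log2. Of the 6 genes of this group 4 were called with the neural, 4 with the oligodendrocyte and 3 with the erythroid markers held constant. Ear1 was lost with the last 2 of these, at contrasts of 3.23 and 3.48 log2 against 3.09 log2.

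Ccl8, a chemokine for monocytes and T cells (chr11:82115185-82116799, plus strand), was 3.39 to 18.1 CPM (median 11.3) at P15, 0.570 to 2.71 CPM (median 1.14) at P6 and 0.751 to 5.14 CPM (median 1.59) at 8 weeks, and its contrast was 2.78 ± 0.24 log2 (FDR 7.7e-07). P15 females 2 and 3, at 3.39 and 3.55 CPM, were the lowest P15 mice and overlapped with the highest 8-week mice. Retnla, a secreted protein of alternatively activated macrophages, was 10.1 to 53.6 CPM (median 37.1) at P15, 6.62 to 48.8 CPM (median 16.2) at P6 and 0.757 to 4.7 CPM (median 2.34) at 8 weeks, so it differed less from P6 (1.81-fold) than from 8 weeks (16-fold). Cbr2, a carbonyl reductase of tissue macrophages, was 60.6 to 189 CPM (median 125) at P15 against 20.9 to 47.9 CPM (median 37.4) and 35.6 to 71 CPM (median 45.5). Siglecf, a sialic acid-binding lectin of eosinophils and some macrophages, passed the wider rule, at 26.7 to 67.3 CPM (median 50.7) against 15.8 to 34.4 CPM (median 20.9) and 24.3 to 35.8 CPM (median 29.6). Of 9 border macrophage and monocyte markers, Cd163 and Ms4a7 were peaks by the wider rule (contrasts 0.61 and 0.60 log2), against 3.50% of all genes, and the other 7 passed in neither direction. The list summed to 724 to 1577 (median 976), 289 to 1031 (median 859.5) and 366 to 719 (median 483) CPM at P6, P15 and 8 weeks. The part of border macrophages in these peaks was not tested.

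Myelin and oligodendrocyte genes made up 7 of the 58 peaks. Mog, a glycoprotein of the outer myelin surface (chr17:37010743-37023398, minus strand), was 7.1 to 79.7 CPM (median 12.2) at P15, 0.615 to 2.56 CPM (median 1.34) at P6 and 2.47 to 15.3 CPM (median 4.6) at 8 weeks. Every P15 mouse lay above every P6 mouse, but the ranges at P15 and 8 weeks overlapped, and P15 males 1 and 2 (79.7 and 44.2 CPM) were far above the other P15 mice. Mbp, myelin basic protein, was 385 to 2177 CPM (median 911) at P15 against 83.5 to 323 CPM (median 141) and 182 to 1226 CPM (median 293). Ugt8a, which makes galactosylceramide for myelin, had a contrast of 1.83 ± 0.25 log2. Enpp6, a marker of newly forming oligodendrocytes, was 2.93 to 16 CPM (median 9.0) at P15, 2.53 to 6.8 CPM (median 3.42) at P6 and 0.396 to 3.57 CPM (median 0.937) at 8 weeks, and so stood nearer to P6 than the other myelin genes did. Neu4, a sialidase of oligodendrocyte precursors, was 2.48 to 29.1 CPM (median 7.76) at P15 and at most 4.78 CPM elsewhere.

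By the wider rule 7 of 12 markers of myelinating oligodendrocytes and 3 of 9 markers of their precursors were peaks, against 3.50% of all genes, and none was a trough. The median contrasts of these lists were 1.86 and 0.68 log2. Of the 7 myelin genes called by the 2-fold rule, 3 were called without P15 male 1 and 1 when P6 female 6 was included. When the oligodendrocyte markers were held constant in the fit, 0 of 7 were called, and 1 was called with the neural markers held constant. The median contrast of the 7 was 2.01 log2, against 0.53 log2 in the first and 1.81 log2 in the second of these fits.

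Genes of neurons made up 9 peaks, of which Cbln3 and Gabra6 belong to the list of 8 cerebellar granule neuron markers. Cbln3, a cerebellin secreted by granule neurons (chr14:55878913-55884392, minus strand), was 9.02 to 71.7 CPM (median 28.4) at P15, 0.0879 to 1.42 CPM (median 0.518) at P6 and 0.113 to 22.6 CPM (median 4.41) at 8 weeks. The P6 and P15 mice did not overlap, and the P15 and 8-week mice did. Gabra6, the granule neuron subunit of the GABA-A receptor, was 2.1 to 38.2 CPM (median 9.55) at P15, 0 to 7.47 CPM (median 2.56) at 8 weeks and at most 0.225 CPM at P6, so no fold is given against P6. Within P15 the highest values of Gabra6 were in females 2 and 3 (38.2 and 28.6 CPM) and the lowest in males 5 and 6 (2.93 and 2.10 CPM). These males also had the lowest summed granule neuron markers of the P15 mice (63.4 and 47.8 CPM) and the highest summed microglial markers (45742 and 49184 CPM). Gabra6 and Cbln3 are part of the granule neuron sum, so that sum is not a separate measure. The other 6 members of the granule neuron list passed neither rule. Of all genes 0.329% were peaks by the 2-fold rule and 3.50% by the wider rule.

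Gabrd, the delta subunit of the same receptor class, was 4.26 to 22.1 CPM (median 7.79) at P15 against 0.167 to 1.06 CPM (median 0.575) and 2.54 to 8.1 CPM (median 3.57). Grm4, a presynaptic glutamate receptor, was 7.34 to 52 CPM (median 23.2) at P15, 1.97 to 9.56 CPM (median 4.31) at P6 and 0.563 to 12.3 CPM (median 4.14) at 8 weeks. Slc17a7, the vesicular glutamate transporter VGLUT1, was 31.3 to 242 CPM (median 85.9) at P15 against 8.32 to 27.3 CPM (median 16) and 9.62 to 64.8 CPM (median 25.2). Kcng4 and Pvalb, a potassium channel subunit and the calcium buffer parvalbumin, differed from P6 by 6.10 and 2.97 log2 but from 8 weeks by 0.72 and 0.71 log2 (FDR 0.035 and 0.03), which makes them the weakest peaks of this group on the later side. Gng13 and Syt12, a G protein gamma subunit and a synaptotagmin, complete it. With the neural or the oligodendrocyte markers held constant 0 of the 9 were called, and with the erythroid markers 3 were. The median contrast of the 9 was 2.36 log2, and it was 2.13 with the neural, 1.33 with the oligodendrocyte and 2.60 log2 with the erythroid markers held constant, so with the neural markers the calls were lost at nearly the same size. The summed level of general neuron markers was not highest at P15. It was 276 to 926 (median 693), 89.5 to 693 (median 315) and 48.4 to 212 (median 110.4) CPM at P6, P15 and 8 weeks. Of these 6 markers 1, Syt1, was a peak by the wider rule, against 3.50% of all genes. Markers of neural progenitors and immature neurons summed to 661 to 2037 (median 1658), 124 to 845 (median 326) and 89 to 206 (median 103) CPM, and 0 of 9 were peaks. The part that RNA of neurons in the preparation plays in these peaks was not tested beyond these fits.

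Erythroid genes made up 5 peaks, and all 6 erythroid markers were peaks by the wider rule, against 3.50% of all genes. Slc4a1, the band 3 anion exchanger of the red cell membrane (chr11:102348824-102366203, minus strand), was 21.7 to 53.1 CPM (median 31.5) at P15 against 5.96 to 31.8 CPM (median 16.9) and 1.06 to 8.63 CPM (median 3.51), and thus rose 1.94-fold from P6 and stood 9.87-fold above 8 weeks. Epb42, Rhd and Tspo2 were expressed at lower levels, with P15 medians of 1.54, 0.529 and 1.45 CPM. Among the markers Alas2, the first enzyme of haem synthesis in red cells, was 256 to 566 CPM (median 336) at P15 against 69.1 to 288 CPM (median 139) and 35.4 to 261 CPM (median 120.2), and Hbb-bs, a beta globin, was 1466 to 3756 CPM (median 2404) against 482 to 1843 CPM (median 773) and 299 to 1795 CPM (median 810.5). The globin genes have near-identical copies, and reads can be split between them. With the erythroid markers held constant 0 of these 5 were called by the 2-fold rule, and 10 of all 58 peaks remained. The median contrast of the 5 fell from 2.18 to 0.71 log2 in that fit, while that of all 58 peaks was 2.13 log2 without and 2.03 log2 with it, and each of the 48 peaks whose call was lost kept its direction. With the oligodendrocyte markers held constant 4 of the 5 were called. Beyond these fits the part of red cells and their precursors in these peaks was not tested.

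Genes of the Wnt pathway and of the response to glucocorticoids and the clock followed. Wif1, a secreted Wnt inhibitor, was 0.911 to 6.55 CPM (median 3.38) at P15, 0.117 to 1.47 CPM (median 0.787) at P6 and 0 to 1.65 CPM (median 0.498) at 8 weeks. Fzd10, a Wnt receptor, and Lgr6, a receptor for the Wnt enhancers R-spondins, had contrasts of 1.74 ± 0.23 and 2.01 ± 0.25 log2, and both overlapped with both other ages. Of the 3 Wnt genes 0 were called with the neural or the oligodendrocyte markers held constant, and 1 with P6 female 6 included or in limma-voom. Fzd10 was also lost in DESeq2 and without P15 male 1 and was called in 5 of the 16 fits that left out 1 mouse. With the oligodendrocyte markers held constant its contrast was 0.63 log2 and that of Lgr6 1.02 log2. Hif3a, a hypoxia-inducible factor chain that glucocorticoids also induce, was 9.52 to 47.2 CPM (median 15.8) at P15, 5.1 to 7.95 CPM (median 6.06) at P6 and 2.75 to 10.4 CPM (median 5.97) at 8 weeks. Its call was lost in limma-voom and with each of the 3 sets of markers held constant, at contrasts of 1.52 to 1.78 log2 against 1.65 log2. Of 13 glucocorticoid response genes Hif3a, Fkbp5 and Klf9 were peaks by the wider rule, against 3.50% of all genes, and none was a trough. Fkbp5, a co-chaperone of the glucocorticoid receptor, was 69.3 to 127 CPM (median 104) at P15 against 54.6 to 73 CPM (median 59) and 50.9 to 76.8 CPM (median 63.9), and Klf9 was 17.2 to 115 CPM (median 57.7) against 7.38 to 27.8 CPM (median 21.2) and 24.5 to 61.4 CPM (median 36.5).

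Of 16 circadian clock genes, which run a daily cycle of transcription, Ciart, Dbp and Tef were peaks by the wider rule, against the same share of all genes, and none was a trough. Ciart was 26.1 to 74.3 CPM (median 45.2) at P15, 5.05 to 25 CPM (median 13.7) at P6 and 13.7 to 57.6 CPM (median 29) at 8 weeks. Dbp was 35.1 to 68.1 CPM (median 38.9) at P15 against 9.72 to 15.9 CPM (median 13.6) and 23.4 to 49.3 CPM (median 33.6). The hour at which the mice were taken is not given in the sources used here. Clock proteins bind the letters CACGTG, an E-box that reads the same on both strands. These letters were held by 1155 of 12227 tested genes with a RefSeq promoter entry (9.45%) in the 250 bases before a start, and by 2 of the 3 clock peaks. Over the wider set they were held by 43 of 483 peaks (8.90%), and by 2 of 40 peaks of the 2-fold rule, shares below that of all genes. The window of Ciart is printed below because it holds 3 matches (capitals), which begin 116, 58 and 44 bases before its RefSeq start (GRCm38.p6, chr3:95882229-95882384, minus strand).
Ciart: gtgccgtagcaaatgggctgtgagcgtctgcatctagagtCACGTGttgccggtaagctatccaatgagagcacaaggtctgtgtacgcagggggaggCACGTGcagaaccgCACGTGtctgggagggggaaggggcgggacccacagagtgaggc

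The remaining 22 peaks were not grouped by role. Among them Smyd1, a lysine methyltransferase, was 3.83 to 25.4 CPM (median 10.01) at P15 against 0.253 to 1.48 CPM (median 0.776) and 1.48 to 7.74 CPM (median 3.0), and Mmp28, the metalloproteinase epilysin, was 18.8 to 35.7 CPM (median 26.7) against 2.55 to 8.26 CPM (median 4.47) and 11.7 to 25.9 CPM (median 15.6). Unc5cl, an adaptor that can activate NF-kappa-B, was 1.8 to 4.62 CPM (median 3.27) at P15 against 0.156 to 0.799 CPM (median 0.535) and 0.846 to 2.15 CPM (median 1.36). Fndc5, the precursor of irisin, was 16.7 to 154 CPM (median 52.2) against 7.03 to 15.1 CPM (median 10.1) and 8.96 to 31.6 CPM (median 15.6), and was highest in P15 male 1. With each of the 3 sets of markers held constant the calls of Fndc5 and Smyd1 were lost, and with the oligodendrocyte markers their contrasts fell from 2.14 to 0.97 and from 2.61 to 1.45 log2. The call of Mmp28 was lost with the oligodendrocyte and erythroid markers, at contrasts of 1.401 and 1.534 log2 against 1.476 log2. That of Unc5cl was lost with the erythroid markers, where its contrast fell from 1.924 to 1.205 log2. Gm10800 reached 162 CPM in 1 P15 mouse with a P15 median of 1.73 CPM, and its values are uncertain. Of the 58 peaks 52 were protein-coding (89.7%, against 84.0% of all genes tested).

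Genes of the inflammatory response made up 5 of the 10 troughs, a grouping made after the calls. Of these 5, limma-voom called 2 (Il1rn and Tnfaip2), and 1 (Tnfaip2) was called with the oligodendrocyte or the erythroid markers held constant. Il1b, interleukin-1 beta (chr2:129364570-129371139, minus strand), was 6.51 to 22.4 CPM (median 10.3) at P15, 15 to 65.3 CPM (median 26.2) at P6 and 36.3 to 93.8 CPM (median 57.2) at 8 weeks. All P15 mice lay below all 8-week mice, while P15 and P6 mice overlapped from the lowest P6 mouse up to 22.4 CPM, and the contrast was -1.74 ± 0.21 log2 (FDR 0.016). Il1rn, the secreted antagonist of the interleukin-1 receptor, was 0.540 to 2.45 CPM (median 1.04) at P15, 4.81 to 11.2 CPM (median 6.79) at P6 and 0.933 to 4.63 CPM (median 2.8) at 8 weeks, so interleukin-1 beta and its antagonist were both lowest at P15, with the agonist highest at 8 weeks and the antagonist at P6. Acod1, which makes the antimicrobial metabolite itaconate, was 0 to 1.94 CPM (median 0.227) at P15, 0.387 to 2.66 CPM (median 1.03) at P6 and 1.29 to 10.8 CPM (median 3.9) at 8 weeks, and 11 of the 12 P15 mice were at most 0.66 CPM. Its call was lost in limma-voom and with each of the 3 sets of markers held constant, at contrasts of -3.05 to -2.41 log2 against -2.71 log2. Cxcl10, a chemokine induced by interferons, was 8.71 to 28.1 CPM (median 18.3) at P15, 52.3 to 161 CPM (median 115) at P6 and 17 to 58.8 CPM (median 29.3) at 8 weeks. The P15 and P6 values of Cxcl10 did not overlap and those of P15 and 8 weeks did. Its call was lost in DESeq2, in limma-voom, with any of the 3 sets of markers held constant and without P15 male 1 (-1.45 log2, against -1.53 ± 0.17 log2), and it was made in 7 of the 16 fits that left out 1 mouse. The contrast of Cxcl10 was -1.07 log2 with the oligodendrocyte markers held constant and -1.62 to -1.45 log2 in the other fits that lost the call named here.

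Tnfaip2, a gene first found as a target of tumour necrosis factor (chr12:111442469-111455018, plus strand), was the trough that separated all mice. It was 6.61 to 14.1 CPM (median 8.13) at P15, 19 to 52 CPM (median 38.7) at P6 and 25.7 to 57.1 CPM (median 36.2) at 8 weeks, with P15 3.84-fold below P6 and 4.16-fold below 8 weeks (contrast -2.0 ± 0.16 log2, FDR 9.3e-06). It was also called in every alternative fit that kept the rule. Itgax, the CD11c integrin chain of dendritic cells and of early postnatal microglia, was 7.94 to 28.5 CPM (median 14.2) at P15, 62.2 to 133 CPM (median 98.2) at P6 and 23.7 to 35.2 CPM (median 27.3) at 8 weeks. Cd28, the co-stimulatory receptor known from T cells, was 0.304 to 3.43 CPM (median 1.41) at P15 against 4.15 to 11.2 CPM (median 6.24) and 3.17 to 7.17 CPM (median 4.67), and Cd200r4, of the CD200 receptor family, was 0 to 0.869 CPM (median 0.400) against 2.08 to 4.45 CPM (median 3.52) and 0.521 to 1.66 CPM (median 0.838). Neurog1, a proneural transcription factor, was at most 0.114 CPM at P15, with a P6 median of 0.519 CPM, and its fitted fold depends on the prior count. Fam71f2 was the remaining trough, at most 0.36 CPM at P15.

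**Figure D4:**
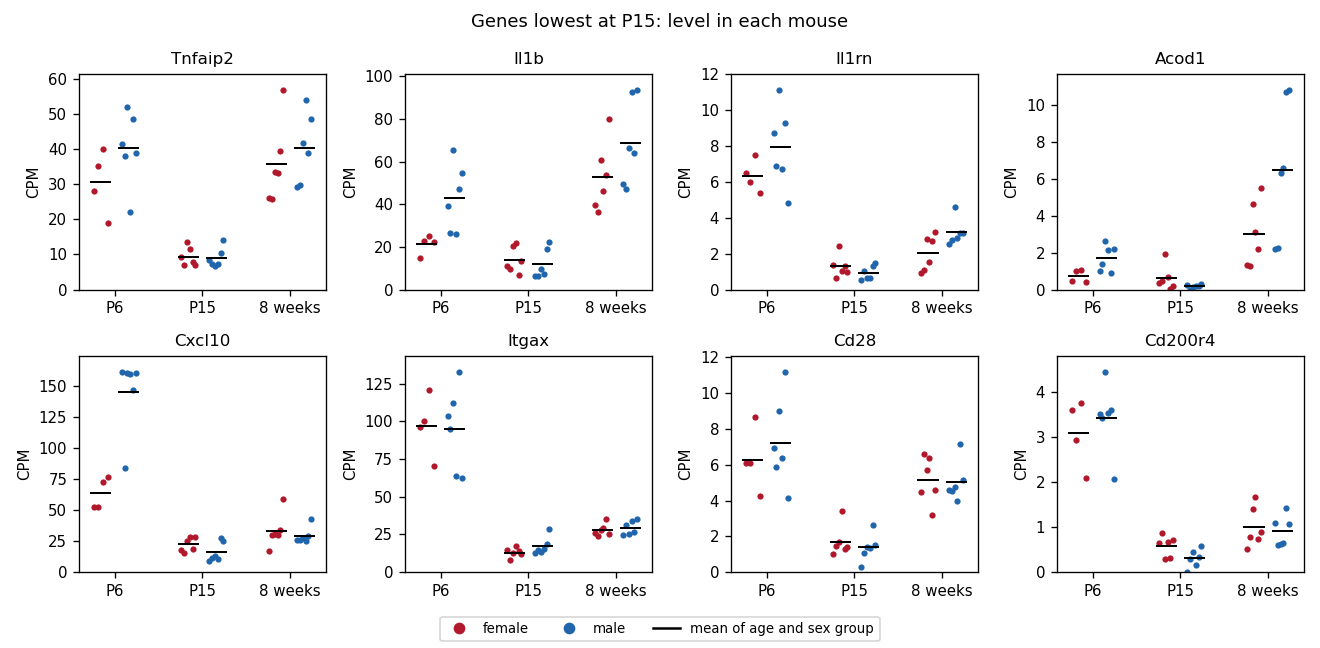
Level in CPM (vertical axis, from 0) of 8 trough genes in each mouse by age, with females and males apart and a line at the mean of each age and sex group. Tnfaip2 is lower in all 12 P15 mice than in any other mouse, while Itgax, Cxcl10 and Cd200r4 are highest at P6 and differ less between P15 and 8 weeks.

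The upstream sequences of 4 troughs are shown because they share a short run of letters of the kind that NF-kappa-B proteins bind. The letters GGNNTTTCC were searched on both strands in the 250 bases before each start, and this motif was chosen after the trough genes were seen. It was held by 756 of 12227 tested genes with a RefSeq promoter entry (6.18%) and by 4 of the 9 troughs of the 2-fold rule with an entry. Over the wider sets it was held by 29 of 439 troughs (6.61%) and 31 of 483 peaks (6.42%), shares near that of all genes. The matches, in capitals, begin 87, 50, 85 and 158 bases before a RefSeq start of Tnfaip2 (chr12:111442534-111442622, plus strand), Il1rn (chr2:24345281-24345369, plus strand), Acod1 (chr14:103046887-103046975, plus strand) and Cxcl10 (chr5:92348999-92349087, minus strand), all on GRCm38.p6. These RefSeq starts lie 192, 8518, 35 and 0 bases inside the gene spans given for GENCODE, so the Il1rn window belongs to an internal start. A match describes the letters and not a bound site.
Tnfaip2: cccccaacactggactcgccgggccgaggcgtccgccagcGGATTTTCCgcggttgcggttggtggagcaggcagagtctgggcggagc
Il1rn: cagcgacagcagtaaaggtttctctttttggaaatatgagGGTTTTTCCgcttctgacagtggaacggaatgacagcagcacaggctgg
Acod1: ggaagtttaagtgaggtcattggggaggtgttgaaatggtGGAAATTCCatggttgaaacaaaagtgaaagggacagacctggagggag
Cxcl10: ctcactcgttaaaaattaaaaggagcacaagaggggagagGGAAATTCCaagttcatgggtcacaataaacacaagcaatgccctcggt

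By the wider rule 6 of 20 cytokine and chemokine genes were troughs and none was a peak, against 3.35% of all genes. These were Il1a, Il1b, Tnf, Ccl3, Ccl4 and Cxcl10, and the median contrast of the list was -0.51 log2, against -0.002 for all genes. Tnf, tumour necrosis factor, was 79.3 to 184 CPM (median 134) at P15, 167 to 481 CPM (median 208) at P6 and 159 to 515 CPM (median 236) at 8 weeks. Ccl3, a chemokine that draws monocytes, was 137 to 451 CPM (median 338) at P15 against 450.3 to 1212 CPM (median 664) and 504 to 1081 CPM (median 702), and Ccl4 was 194 to 410.4 CPM (median 241) against 333 to 815 CPM (median 497) and 395 to 796 CPM (median 536). The ranges of P15 and of each other age overlapped in Tnf and Ccl4, and in Ccl3 P15 met P6 only between 450.3 and 451 CPM and did not meet 8 weeks. Ccl8, not a member of that list, was a peak.

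Genes upstream of these cytokines were lower in part. Of 23 genes of toll-like receptors and NF-kappa-B 3 were troughs, against 3.35% of all genes, namely Tlr2, the adaptor Traf6 and the induced regulator Nfkbiz, with contrasts of -0.67, -0.47 and -0.87 log2. The median of that list was 0.09 log2, and its other 20 members passed in neither direction. Outside the lists, Rel, an NF-kappa-B subunit, and Ptgs2, which starts prostaglandin synthesis, were troughs as well, with contrasts of -0.73 and -1.43 log2, and both are named here after their values were seen. The complement receptors C3ar1 and C5ar1 were the troughs among 12 complement genes. C3ar1 was 82.9 to 243 CPM (median 171) at P15 against 227 to 491 CPM (median 309.8) and 225 to 366 CPM (median 326).

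Of 18 genes of early postnatal and disease-associated microglia 5 were troughs, against 3.35% of all genes, and none was a peak. The same share stands beside the next lists. They were Itgax, Lgals3, Clec7a, Cd9 and Ccl6, with contrasts from -1.81 log2 in Itgax to -0.45 log2 in Ccl6. Lgals3, galectin-3, was 3.93 to 10.1 CPM (median 5.79) at P15, 15.8 to 30.5 CPM (median 24.6) at P6 and 6.17 to 20.7 CPM (median 10.04) at 8 weeks, and Clec7a, the beta-glucan receptor dectin-1, was 8.81 to 37.9 CPM (median 23.6) against 37 to 81.7 CPM (median 62.5) and 23.8 to 41.8 CPM (median 38). The median of the list for P15 against 8 weeks was 0.03 log2, and its other 13 members passed in neither direction. Among 24 immediate early genes, which are switched on within minutes of a stimulus, Egr2, Egr3 and Klf6 were troughs (contrasts -0.57, -0.62 and -0.86 log2). Klf6 was 175 to 405 CPM (median 253) at P15, 250.3 to 581 CPM (median 397) at P6 and 297 to 838 CPM (median 559) at 8 weeks. The direction of Egr2 turned with the oligodendrocyte markers held constant (0.020 log2), and Egr2 passed in neither sex alone. Of 12 heat shock genes Hspd1 and Dnaja1 were troughs.

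Of 22 adhesion and motility genes 4 were troughs, Cd44, Itgal, Itgax and Cdc42ep3, against 3.35% of all genes, and Cd44, a hyaluronan receptor, was 10.6 to 17.7 CPM (median 13) at P15 against 24.5 to 31.8 CPM (median 27.4) and 12.3 to 36.8 CPM (median 19.4). The remaining lists held at most 2 in either direction, against 3.50% of all genes for peaks and 3.35% for troughs. Among microglial transcription factors Mitf was the sole trough of 19. Of 21 interferon response genes Rsad2 was a peak (0.90 log2) and Cxcl10 a trough, and of 22 lysosomal genes Grn and Ctsf were peaks and Ctsz and Galc troughs. Lrp1 and Stab1, receptors for the clearance of dying cells and debris, were peaks (contrasts 0.43 and 0.40 log2) and Dock1 a trough, of 21 genes. Genes of DNA replication (18), mitosis (16), antigen presentation (14), cholesterol synthesis (21), ribosomal proteins (82) and nuclear-encoded oxidative phosphorylation (73) held 0 peaks and 0 troughs by the wider rule. For mitosis, P15 was 2.61 log2 below P6 and 2.69 log2 above 8 weeks in the median, a steady fall.

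The trough calls changed when marker levels were held constant. With the neural markers held constant 8 genes were troughs, of which 6 were among the 10, and 3 of the 20 cytokine genes were troughs by the wider rule. With the oligodendrocyte markers held constant 10 genes were troughs but only Tnfaip2 was shared, and with the erythroid markers 3 were, of which Tnfaip2 and Itgax were shared. The contrasts themselves changed less than the calls. The median contrast of the 10 troughs was -1.97 log2, and it was -1.94 with the neural, -1.63 with the oligodendrocyte and -1.99 log2 with the erythroid markers held constant. Il1b stood at -2.01 log2 in the last of these fits and was not called. Since the marker levels differ between the ages themselves, these fits also take away part of the age difference. Over the 12 P15 mice, Il1b was highest in male 6, female 4 and female 3 (22.4, 21.7 and 20.6 CPM) and lowest in males 1 and 2 (6.51 and 6.53 CPM), the mice with the highest summed myelin markers.

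The P15 contrast was compared between the sexes, since each age held both. No gene differed between females and males at an FDR below 5% in edgeR, and 0 did in DESeq2 and in limma-voom. At an unadjusted p below 0.05 there were 2702 genes (15.3% of those tested), and the lowest FDR was 0.29. About 5% would be expected with no difference between the sexes. The reason for this excess was not tested, and the absence of calls does not show that the sexes are alike. The 58 peaks were positive and the 10 troughs negative in both sexes, a direction that the rule partly fixes since it used both. By the wider rule within each sex, 237 genes were peaks in females (1.42% of 16698) and 351 in males (2.09% of 16795), and 221 (1.32%) and 337 (2.01%) were troughs. Of the genes tested in both, 128 were peaks in both sexes, which is 54.2% of the female and 36.8% of the male peaks. For troughs 57 were shared, which is 25.8% of the female and 17.2% of the male ones, and no gene was a peak in 1 sex and a trough in the other. Females had 4 mice at P6 and males 6.

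Of the 58 peaks 51 were expressed highly enough to be tested within each sex, and 36 passed the wider rule in each sex alone, among them Tmem44, Hs3st2, Rnase2a, Ccl8 and Itgae. The calls of peaks and troughs came from the same mice, so such passes are not independent of them. Of the 10 troughs 8 were tested in both sexes and 3 passed in both, Tnfaip2, Cd28 and Itgax, while all 9 tested in males passed there. Acod1 had a contrast of -1.25 log2 in females and -4.17 log2 in males, and Il1b of -1.28 and -2.20 log2. Gm10800 differed most in size among the peaks, with 0.56 log2 in females and 5.43 log2 in males. None of these differences between the sexes passed the test.

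**Figure D5:**
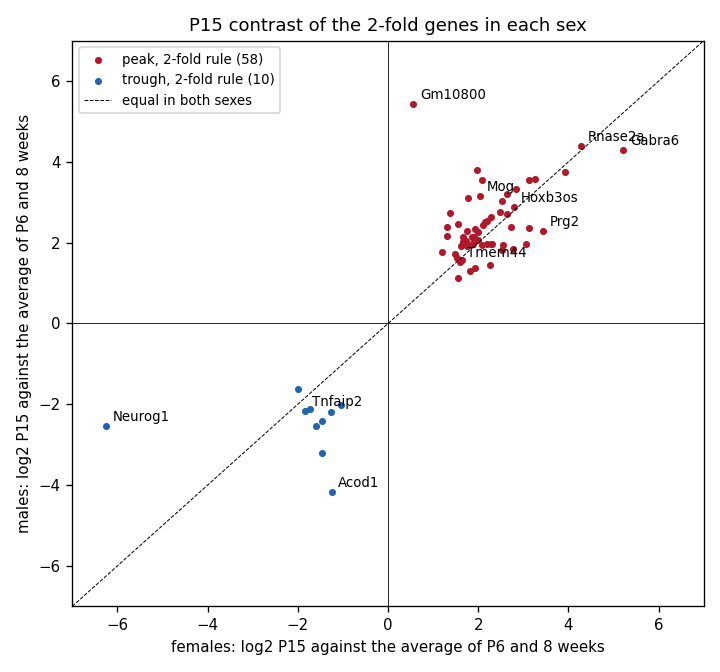
Each point is 1 of the 58 peaks or 10 troughs, with the log2 contrast of P15 against the average of P6 and 8 weeks in females on the horizontal axis and in males on the vertical axis. Points lie on the same side of 0 in both sexes, and Gm10800, Acod1 and Neurog1 lie farthest from the dashed line of equal values.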

How the data were processed

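The authors prepared directional mRNA libraries, sequenced them as paired-end reads, trimmed them (fastp 0.20.0 in the submitters' processing notes), aligned them with STAR to mm10/GRCm38 and counted fragments by strand with featureCounts. The authors deposited raw counts per gene, unfiltered and not normalised. The release of their annotation is not given in the sources used here. Names, biotypes and coordinates were taken from GENCODE M21 (GRCm38), which may differ from it, and 55141 of 55401 identifiers matched. The series' miRNA data were not used here.

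Groups were taken from the age and sex labels. A gene was tested if it reached 0.5 CPM in 5 or more mice, libraries were scaled by TMM, and a mean for each age and sex group was fitted with edgeR 4.0.16 (glmQLFit, robust) in R 4.3.3. The contrast was P15 minus the average of P6 and 8 weeks, tested with glmTreat at 2-fold, and P15 minus each age with glmQLFTest. The FDR is the Benjamini-Hochberg adjusted p over all genes tested, and tests were two-sided. Levels are TMM-scaled CPM. Each library is from a separate mouse, and the median total was 32052382 counts. A level of 3 counts is between 0.0770 and 0.129 CPM. The script was tested on simulated data, and no library was found to be a copy of another.

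The members and lists were chosen with earlier results of these data known. By the rule for named genes, the 12 largest margins over both ages were taken among called genes of at least 5 CPM whose mice did not overlap, then up to 3 called members of each list, then any autosomal gene that differed between the sexes. Among the genes it named were Hs3st2, Tmem44, Tnfaip2, Cbln3, Gabra6, Neu4, Enpp6, Ugt8a, Mog, Mbp, Itgax, Hif3a, Cxcl10 and Il1b, and other genes were named after their values were seen. A few genes are not reported here. Markers held constant were the mean log2 level of a marker list, as a covariate. Alternatives were other scalings, filters and tools (limma 3.58.1 voom with TREAT, DESeq2 1.42.0), other fold thresholds, age without sex, a replicate block, neural and oligodendrocyte marker covariates, P6 female 6 included, and each P15 mouse and P6 female left out. The erythroid marker covariate was added after the data were seen. Promoter sequences are from RefSeq (GRCm38.p6).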

Additional observations from a re-analysis of the deposited data

Results flagged for a closer look

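Among 84 age and sex groups of 14 genes that the rule named, 6 held a mouse whose gap to its nearest neighbour was large against the range of its group (Dixon's criterion). Chance flags about 1 in 20 groups, and no explanation was tested. Tnfaip2 was 22.2 CPM in P6 male 4, below the 38.2 to 52.0 CPM of the other P6 males. In 8-week male 4, Cbln3 was 0.113 CPM against 2.84 to 13.4 CPM and Gabra6 was 0 CPM against 1.39 to 6.12 CPM in the other 8-week males. That mouse also had the lowest summed granule neuron markers of all 34, 23.6 CPM, a sum that includes these genes. Gabra6 was 0.225 CPM in P6 female 2 and 0 CPM in the other P6 females, a level near the floor of 3 counts. Cxcl10 was 42.6 CPM in 8-week male 6 against 24.7 to 28.8 CPM, and 83.5 CPM in P6 male 2 against 147 to 161 CPM. None of these mice was at P15.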

How the results depend on the processing

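The counts of 58 peaks and 10 troughs depended most on the fold threshold. Without it there were 617 and 590, and with 2-fold asked of each pairwise change too there were 21 and 2. limma-voom with TREAT gave 35 and 5, and a filter of at least 10 counts in every mouse gave 27 and 4 over 13655 genes. With the neural marker covariate there were 28 peaks, of which 19 were among the 58, and with the oligodendrocyte marker covariate 23, of which 16 were. With the erythroid marker covariate, added after the data were seen, there were 10 peaks and 3 troughs. Other alternatives stayed within 1.5 times of both counts. Leaving out 1 mouse gave 44 to 63 peaks and 8 to 13 troughs, and 36 peaks and 8 troughs were called in each of those 16 fits. Among the genes named, the direction turned in Egr2 with the oligodendrocyte marker covariate (0.020 log2) and in Hba-a1 with the erythroid marker covariate (-0.22 log2).

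The replicate block, a term for the number in the mouse labels, gave 55 peaks and 10 troughs. Same-numbered mice are different animals. The correlation of their deviations from the group means ranged from -0.54 to 0.69 over 80 pairs, with a median of 0.03. For mice with different numbers it ranged from -0.64 to 0.63 over 400 pairs, with a median of -0.01. These values cannot decide whether same-numbered mice shared a litter or a batch, and the block was not treated as a pairing. The test between the sexes gave 0 genes in every setting run. In females alone 17 genes were peaks and 2 troughs, and in males alone 24 and 13. Without a fold threshold these were 237, 221, 351 and 337. Leaving out 1 P6 female gave 15 to 20 peaks and 1 to 2 troughs in females, with 1 trough without P6 female 1, 2 or 3. The depth limits low genes: at P15 the troughs had a median of 1.33 CPM.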

Other observations

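P6 female 6, the mouse left out, held several of the peak genes above the range of the other 10 P6 mice, as values over all 35 libraries scaled together. Its Mog was 8.64 CPM against 0.618 to 2.60 CPM in the other P6 mice and its Mbp 771 CPM against 85.6 to 332 CPM, both within the range of the P15 mice. Enpp6, the marker of newly forming oligodendrocytes, was 22.8 CPM against 2.53 to 6.97 CPM, above the 17.1 CPM of the highest P15 mouse. Hs3st2 was 5.31 CPM against 0.472 to 3.65 CPM, below every P15 mouse. Several troughs were low in this mouse, with Itgax at 23.6 CPM against 63.2 to 131 CPM, Il1rn at 1.38 CPM against 4.88 to 11.2 CPM and Tnfaip2 at 16.6 CPM against 19.5 to 52.4 CPM. Its microglial genes were low as well: the summed level of the 10 microglial markers was 5279 CPM against 11600.2 to 20663 CPM, Fcrls was 635 CPM against 1340.2 to 2368 CPM and Grn 674 CPM against 1353 to 2456 CPM. Tmem44 was 65.6 CPM, within the other P6 mice, and so was Rnase2a (0.483 CPM). Ccl8, at 0.362 CPM, was below the other P6 mice and far from the P15 level.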
